A study of Mus musculus with 10 samples.

Results

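The genes followed here are 10 of the bone morphogenetic protein (BMP) pathway and its readout, measured in mouse calf muscle after deletion of myostatin: the ligands Bmp4 and Bmp6, the receptors Bmpr1a and Bmpr2, the transducers Smad1 and Smad5, the inhibitor Smad6 and the target genes Id1, Id2 and Id3. They were chosen by symbol, with earlier results of these data known. These are 10 of the 18194 genes with a probe set of their own on the array, and 23 probe sets name them and no other gene. A probe set is a group of short probes against 1 transcript. In 9 of the 10 genes, by 18 of the 23 probe sets, the mean over all arrays was a log2 intensity of at least 4, the filter used for testing. The 5 probe sets left out, among them the only one of Smad6, lay below it.

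The tissue was gastrocnemius from male C57BL/6 mice aged 7.5 months, with 5 arrays per genotype. The series design states 5 mice of each genotype. The knockout mice (Floxed_Mstn) had myostatin genes flanked by Cre recombination sites and the controls (WT_Mstn) had normal ones. Both groups carried the CAGG-CreER transgene, a tamoxifen-dependent Cre under a promoter that is active in most cell types, and both were given 8 tamoxifen injections from 4 months of age. The deletion was therefore not aimed at muscle fibres alone, and the controls share any effect of Cre and tamoxifen.

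BMPs are secreted dimers that bring together type I receptors such as Bmpr1a and type II receptors such as Bmpr2. The type I receptor then phosphorylates Smad1 and Smad5, which move to the nucleus with Smad4, while myostatin signals through activin receptors to a different pair, Smad2 and Smad3. Id genes are classical targets of the BMP branch. Their proteins have a helix-loop-helix domain but no DNA-binding region, and they hold E proteins in inactive pairs, which restrains the myogenic factors. In adult muscle the BMP branch is known for supporting fibre mass, and Smad6 and Smad7 limit it.

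No member differed between the genotypes past the threshold. None of the 18 member probe sets passed limma's moderated test at an adjusted p of 0.05, where 0.0993% of all 21154 probe sets did. At an unadjusted p under 0.05 there was 1 member probe set (of Bmpr1a, lower), where 7.69% of all probe sets lay under it. The groups overlapped for all 18, while 2.06% of all probe sets had groups that did not overlap. There were 9 member probe sets with higher and 9 with lower values in knockouts, and 50.8% of all probe sets had lower values. Over the brightest probe set of each of the 9 measured genes the median log2 difference was 0.03, against -0.0049 over the brightest probe sets of all 10704 measured genes. The ligands, receptors and transducers differed by at most 0.10 (log2) on their brightest probe sets, whereas the 3 Id genes had lower values, between -0.41 and -0.27, with wide errors.

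**Figure D1:**
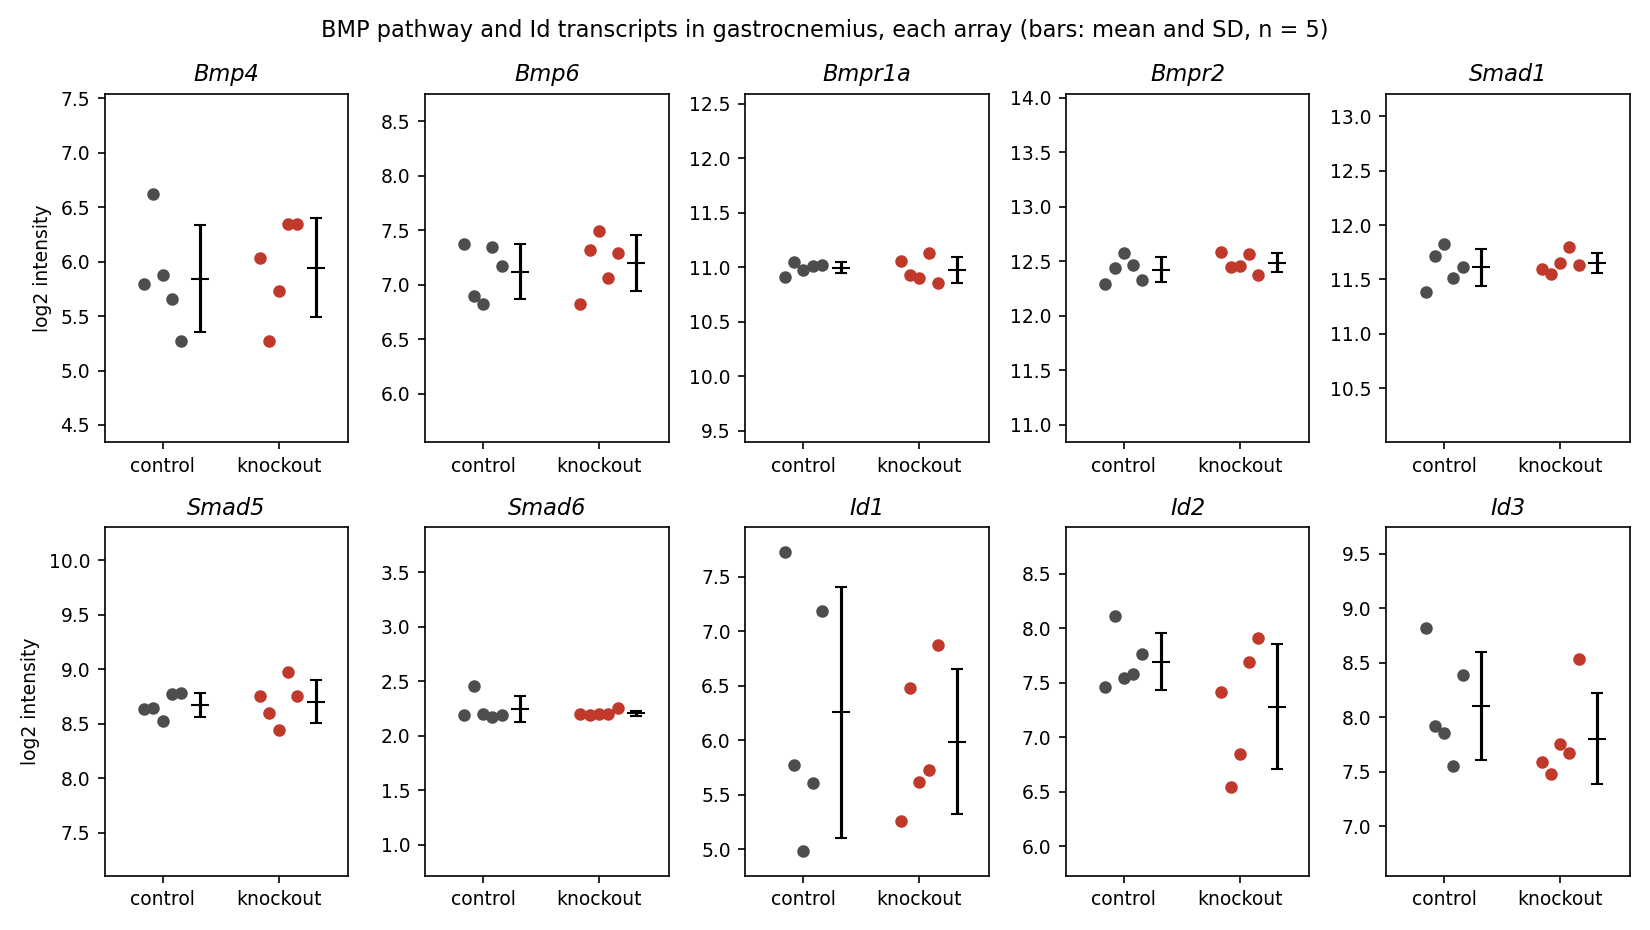
Log2 intensity (vertical axis, each panel spanning the same range) of the brightest probe set of each gene in 5 control and 5 knockout arrays, with points for arrays and bars for the mean and SD. Bmpr1a, Bmpr2 and Smad1 lie close together in both groups, Id1, Id2 and Id3 are spread widely within each group, and Smad6 lies near the lowest values of the arrays.

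Neither ligand differed past the threshold. Bmp4, a ligand made by many connective and vascular cells, measured 5.80, 6.62, 5.87, 5.66 and 5.27 in controls 1 to 5 and 6.04, 5.27, 5.73, 6.34 and 6.34 in knockouts 1 to 5 (log2 intensity). The ranges lay over each other, with the highest array a control. Its knockout minus control difference was 0.10 ± 0.27 (log2, SE, n = 5 each, adjusted p = 0.986), with a 95% interval from -0.51 to 0.71. Bmp6, a ligand best known from iron regulation, measured 7.37, 6.90, 6.82, 7.34 and 7.17 in controls and 6.82, 7.32, 7.49, 7.06 and 7.29 in knockouts. Both groups had high and low arrays, and the difference was 0.08 ± 0.15 (adjusted p = 0.980, interval -0.27 to 0.42).

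The brightest probe sets of the receptors had the smallest standard errors among the members' brightest. Bmpr1a, a type I receptor, measured 10.91, 11.05, 10.98, 11.01 and 11.02 in controls and 11.06, 10.93, 10.90, 11.13 and 10.86 in knockouts on its brightest probe set. The knockouts reached both above and below the controls, and the difference was -0.02 ± 0.07 (adjusted p = 0.990, interval -0.18 to 0.14). Its other kept probe sets did not all give the same value. The second brightest gave -0.22 ± 0.09 (log2, SE, n = 5 each), with an adjusted p of 0.581 and an unadjusted exact permutation p of 0.0238. It measured 10.46, 10.41, 10.54, 10.78 and 10.63 in controls and 10.50, 10.34, 10.30, 10.33 and 10.23 in knockouts, so all 5 knockouts lay below the control mean but knockout 1 lay within the control range. The remaining 3 gave -0.13, -0.10 and 0.05 without passing. All 5 kept probe sets were designed from the same transcript sequence, so they are not independent measurements.

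Bmpr2, the type II receptor, measured 12.29, 12.44, 12.57, 12.47 and 12.33 in controls and 12.58, 12.44, 12.46, 12.57 and 12.37 in knockouts. The ranges nearly coincided, with a difference of 0.06 ± 0.08 (adjusted p = 0.949, interval -0.11 to 0.24), and its second kept probe set gave 0.11 ± 0.13 (adjusted p = 0.952). Bmpr2 is the member that lies on the chromosome carrying Mstn, with 57 protein-coding genes between them in the GRCm38.p6 gene order.

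**Figure D2:**
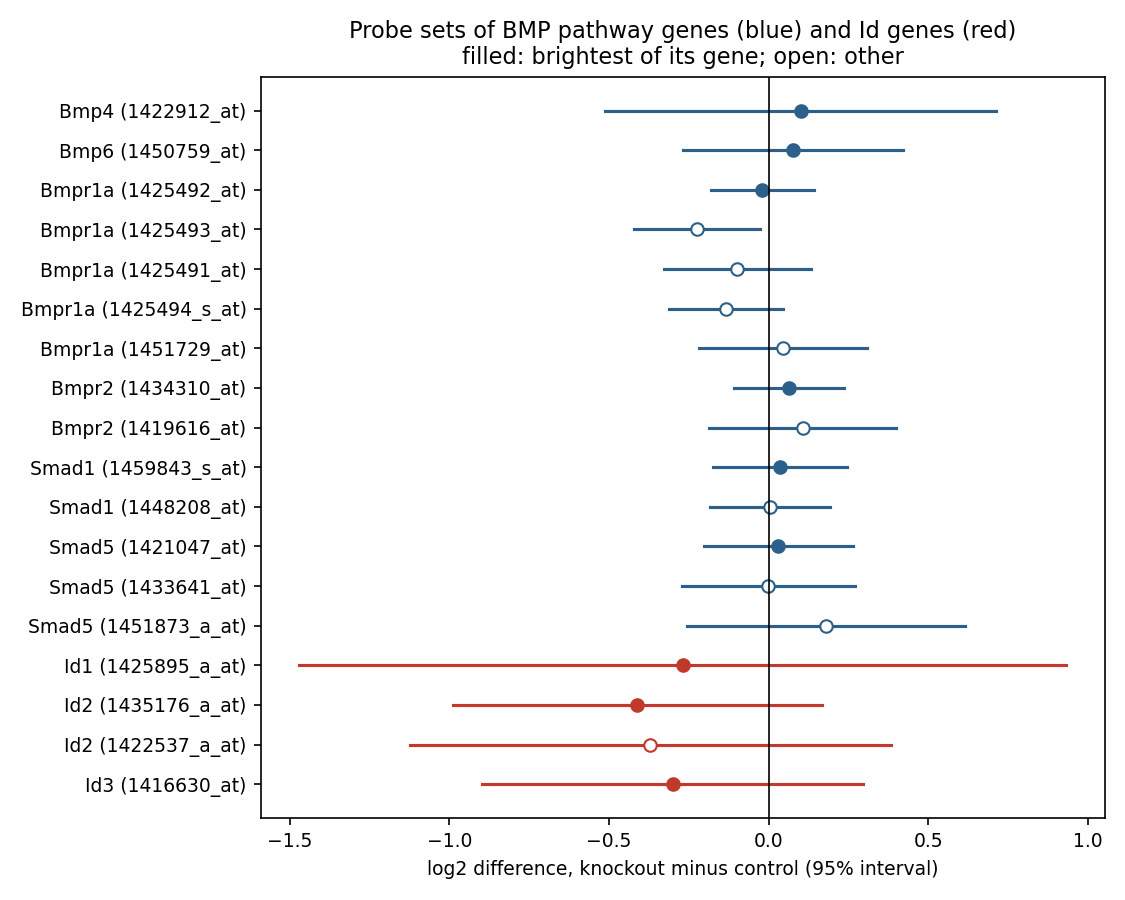
Log2 difference, knockout minus control (horizontal axis), with its 95% interval for each of the 18 kept probe sets, in blue for ligands, receptors and transducers and in red for Id genes. Every interval but that of the second brightest Bmpr1a probe set includes 0, and the intervals of Id1, Id2 and Id3 are wide, from -1.47 to 0.93 for Id1.

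The receptor-regulated Smads had differences near 0. Smad1 measured 11.38, 11.71, 11.83, 11.52 and 11.62 in controls and 11.60, 11.55, 11.65, 11.80 and 11.64 in knockouts. All knockouts lay inside the control range, and the difference was 0.04 ± 0.09 (log2, SE, adjusted p = 0.985, interval -0.17 to 0.25). The name of this probe set ends in _s_at, which marks probes that may also bind related transcripts, and the other kept Smad1 probe set gave 0.0041 ± 0.08. Smad5 measured 8.63, 8.65, 8.53, 8.77 and 8.78 in controls and 8.75, 8.59, 8.44, 8.97 and 8.76 in knockouts. Its difference was 0.03 ± 0.10 (adjusted p = 0.990, interval -0.20 to 0.26), and its other kept probe sets gave -0.0015 and 0.18 (adjusted p = 0.999 and 0.933).

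Smad6, which blocks Smad1 and Smad5 at the receptor and is itself induced by BMP, was not measurable with its single probe set. It read 2.19, 2.46, 2.20, 2.18 and 2.20 in controls and 2.20, 2.20, 2.20, 2.20 and 2.25 in knockouts (log2 intensity), where the lowest value on an array was between 1.83 and 1.92. These values lie near the floor of the scale in every array and carry no fold change. Smad6 expression below what this probe set can detect is not shown to be absent.

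The upstream sequences of Id2 and Id3 are shown because Id transcription is the readout of the pathway and the brightest probe sets of these genes gave the lowest differences among the members. Each is the 250 bases before the RefSeq transcription start, 5′ to 3′ on the gene's strand, from build GRCm38.p6, at chr12:25096093-25096342 on the minus strand for Id2 and chr4:136143572-136143821 on the plus strand for Id3. Capitals mark GGCGCC, a GC-rich palindrome described at BMP-responsive enhancers, and CANNTG, the E-box that E proteins and myogenic factors bind.
Id2: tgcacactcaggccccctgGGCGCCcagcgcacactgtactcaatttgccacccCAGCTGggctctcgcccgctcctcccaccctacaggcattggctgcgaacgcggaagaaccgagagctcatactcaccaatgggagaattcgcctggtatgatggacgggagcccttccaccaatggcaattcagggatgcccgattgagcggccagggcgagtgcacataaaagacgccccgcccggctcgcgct
Id3: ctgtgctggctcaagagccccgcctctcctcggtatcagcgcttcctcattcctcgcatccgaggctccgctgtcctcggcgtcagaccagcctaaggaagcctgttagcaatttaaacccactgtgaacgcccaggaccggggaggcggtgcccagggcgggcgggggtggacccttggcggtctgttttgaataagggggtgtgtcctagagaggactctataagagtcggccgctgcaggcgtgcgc
The Id2 window held GGCGCC once, beginning 231 bases before the start, and CANNTG once, beginning 196 bases before it. The Id3 window held neither, and TATAAA was in neither window. Both strands were searched, and no 2 of these motifs overlapped. Among 32851 promoter windows of this length 9.59% held GGCGCC, 66.2% held CANNTG and 12.4% held TATAAA. Windows were found for 9 of the 10 members, and none for Id1, which was not searched. GGCGCC was in those of Id2, Bmpr1a and Bmpr2 and in 1 of those of Smad5. Over the members' 11 windows GGCGCC was in 4, CANNTG in 5 and TATAAA in 0. The 5 windows with CANNTG belonged to 4 genes, because overlapping Smad5 windows held the same site. The GC content of the 11 windows ran from 60.0% to 78.8%, where the median of all windows was 52.4%. A match describes letters and not a bound site.

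Id2 had the lowest difference of the 3 Id genes, without passing. It measured 7.46, 8.12, 7.55, 7.58 and 7.77 in controls and 7.41, 6.55, 6.85, 7.69 and 7.91 in knockouts (log2 intensity). Knockouts 1, 2 and 3 lay below every control, narrowly for knockout 1, and knockouts 4 and 5 lay among them. The means were 7.69 ± 0.26 (controls, SD, n = 5) and 7.28 ± 0.57 (knockouts, SD, n = 5), a difference of -0.41 ± 0.26 (SE, adjusted p = 0.797, unadjusted exact permutation p = 0.206). The 95% interval ran from -0.99 to 0.17. Its second kept probe set, near the filter level, gave -0.37 ± 0.34 (adjusted p = 0.903).

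Id3 measured 8.82, 7.92, 7.85, 7.55 and 8.38 in controls and 7.59, 7.47, 7.76, 7.67 and 8.53 in knockouts. Below the control mean lay 4 knockouts, but only knockout 2 lay below every control, and knockout 5 exceeded all controls but control 1. The means were 8.10 ± 0.50 and 7.80 ± 0.42 (SD, n = 5 each), a difference of -0.30 ± 0.27 (SE, adjusted p = 0.899, exact permutation p = 0.294, interval -0.90 to 0.30).

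Id1 varied most of the members from array to array. It measured 7.73, 5.77, 4.99, 5.61 and 7.19 in controls and 5.26, 6.48, 5.61, 5.72 and 6.87 in knockouts, so the highest and the lowest array were both controls. The means were 6.26 ± 1.15 and 5.99 ± 0.66 (SD, n = 5 each), a difference of -0.27 ± 0.54 (SE, adjusted p = 0.980, exact permutation p = 0.651). The interval, from -1.47 to 0.93, includes both a rise and a fall of more than 0.9 log2 units. Without control 1 the difference was 0.10, so its sign rests on that array.

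The spread of the Id genes within groups was large for their brightness. The residual SD of Id1 was 0.94 (log2), larger than that of 95.2% of the 2932 probe sets within 0.5 log2 units of its mean, whose median was 0.39. For Id3 (0.46) the share was 91.7% and for Id2 (0.45) it was 85.1%. The signalling members lay lower, from 17.5% for Bmpr1a and 26.2% for Smad5 to 64.0% for Bmp4 and 67.9% for Smad1. These shares describe the arrays and were not tested.

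Id1 and Id3 were correlated across these arrays, in a relation whose test passed by Pearson's r and not by Spearman's rho. Over the 10 arrays, as deviations from the group means, Pearson's r between Id1 and Id3 was 0.80 and Spearman's rho 0.71 (permutation p = 0.0118 and 0.0460, or 0.0353 and 0.138 adjusted over the 3 pairs computed). On the values themselves r was 0.80 and rho 0.59 (permutation p = 0.00755 and 0.0805, adjusted 0.0227 and 0.199). Without controls 1 and 5, the arrays farthest from the median of Id1, r of the deviations was 0.65 (permutation p = 0.177) and r of the values 0.49 (permutation p = 0.233). The relation thus lost its call without those arrays, and also without any 1 of the 5 controls or knockout 4 or 5 (adjusted permutation p from 0.0538 to 0.209). For Id1 and Id2 r of the deviations was -0.02 and rho -0.05 (permutation p = 0.951 and 0.878), and for Id2 and Id3 they were 0.31 and 0.32 (permutation p = 0.409 and 0.387). The adjusted values were 0.951 and 0.878, and 0.614 and 0.580. The bacterial hybridisation controls, RNA added in fixed amount to each array, varied in the opposite direction to these genes. The deviations correlated with r of -0.69 for Id1, -0.55 for Id3 and -0.42 for Id2 over the 10 arrays (rho -0.72, -0.43 and -0.28). For other members r with these controls was 0.59 for Bmpr2 and -0.47 for Smad5, and between -0.25 and 0.27 for the other 4 members measured. After removing the part that followed these controls, r between Id1 and Id3 was 0.70 (adjusted permutation p = 0.154), between Id1 and Id2 -0.47 (0.154) and between Id2 and Id3 0.11 (0.764).

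**Figure D3:**
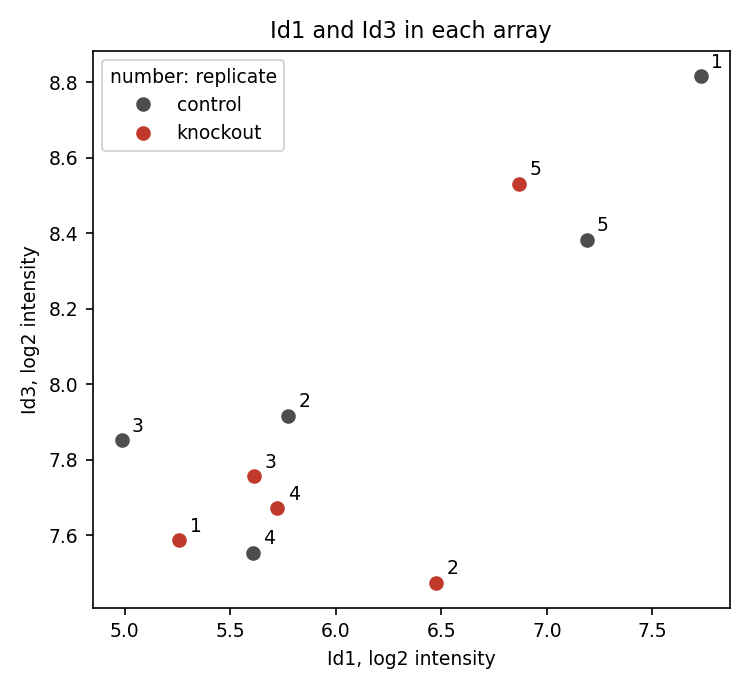
Log2 intensity of Id3 (vertical axis) against Id1 (horizontal axis) in each array, with controls in grey, knockouts in red and replicate numbers beside the points. Controls 1 and 5 and knockout 5 are high for both genes, and the other arrays lie together without a clear trend.

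The genes whose deviations most resembled those of an Id gene, among 10703 others over the 10 arrays, were Zbtb48 (r = 0.98), Prkx (0.97) and Rps18 (0.96) for Id1. For Id2 they were Atp8b2 (0.95), Wasf2 (0.95) and Apoc1 (0.95), and for Id3 Mpc1 (0.93), Cbarp (0.93) and P3h3 (0.93). Id3 ranked 410 for Id1, and Id1 ranked 141 for Id3. Whether these genes also follow the hybridisation controls was not tested, and these are the highest of many correlations over few arrays.

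Other genes of the pathway, from a list of 77 chosen with earlier results of these data known, gave no call either. Of the 51 that were measured, 16 had higher and 35 lower values in knockouts, with a median of -0.07 (log2). None passed over all probe sets (0.131% of the brightest probe sets did), and 51.5% of all genes had lower values. At an unadjusted p under 0.05 there were 9, 8 of them lower, where 8.9% of all genes lay under it and 5.02% did so with lower values, and 3 had groups that did not overlap, where 2.63% of all genes did.

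Among ligands, Bmp5 had -0.31 ± 0.15 (log2, SE, adjusted p = 0.679) and Bmp2 had 0.09 ± 0.14 (0.971), and 10 of the 12 listed ligands were not measured. Among 10 receptors and co-receptors, Acvr1, a type I receptor for BMPs, had -0.54 ± 0.14 (adjusted p = 0.331), but its other probe set gave 0.14. Acvr2a, a type II receptor shared with activins and myostatin, had 0.22 ± 0.10 (0.660), with 0.60 on its other probe set, and Bmpr1b 0.25 ± 0.19 (0.856). Secreted antagonists and modulators had lower values for 10 of 11 measured members, with a median of -0.47 and none past the threshold. Their differences ran from -1.05 to 0.11. The median was the value of a single dim gene near the filter level (means 4.90 in controls and 4.44 in knockouts). Without the 3 arrays of highest hybridisation controls (control 3, knockout 1 and knockout 3) 10 of 11 again had lower values, with a median of -0.31. As a sign of RNA quality, Gapdh signal at the 3′ end exceeded that at the 5′ end by 0.49 ± 0.03 (control) and 0.45 ± 0.03 (knockout; log2, SD, n = 5 each, unadjusted exact permutation p = 0.0317), and for beta-actin 1.47 ± 0.06 and 1.40 ± 0.05 (exact permutation p = 0.0873); its part in these values was not tested. Fst, which encodes follistatin, a binding protein of activins, myostatin and some BMPs, measured 8.45, 8.54, 9.07, 8.62 and 8.88 in controls and 8.37, 7.74, 7.82, 8.30 and 8.21 in knockouts. The groups did not overlap, and the difference was -0.62 ± 0.16 (adjusted p = 0.342). Fstl1 had -0.52 ± 0.13 (0.319) and Bmp1, a procollagen protease that cleaves the BMP antagonist chordin, -0.52 ± 0.22 (0.621), with -0.49 and -0.15 on their other probe sets.

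Among 15 measured intracellular regulators, Smad7, the inhibitory Smad of both the BMP and the TGF-beta branch, measured 8.87, 8.70, 8.74, 8.92 and 8.98 in controls and 8.69, 8.20, 8.37, 8.56 and 8.66 in knockouts. All knockouts lay below all controls, narrowly for knockout 1, and the difference was -0.35 ± 0.11 (log2, SE, adjusted p = 0.469), while its other probe set gave -0.05. Skil, a repressor of Smad signalling, had -0.48 ± 0.12 (adjusted p = 0.285), and Ctdspl, a phosphatase, -0.49 ± 0.21 (0.623). Smad9, the third receptor-regulated Smad of the branch, did not pass the filter.

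Of 6 further target genes measured, 3 had higher and 3 lower values. Id4, the fourth Id gene, measured 7.09, 7.17, 6.99, 6.73 and 7.10 in controls and 6.40, 5.28, 5.78, 7.14 and 6.76 in knockouts. Knockouts 1, 2 and 3 lay below every control, the same arrays as for Id2, where knockout 1 was only narrowly lower. The Id4 difference was -0.75 ± 0.31 (log2, SE, adjusted p = 0.609), with -0.67 on its other probe set. Hey1 had -0.17 ± 0.29 (adjusted p = 0.974). Fbxo30, a ubiquitin ligase that BMP signalling restrains in muscle, had 0.10 ± 0.10 (0.913), and its 4 kept probe sets ran from -0.05 to 0.13.

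The list of partners of the Id proteins had 7 measured genes. They encode E proteins, which Id proteins hold in inactive pairs, and the myogenic factors restrained in that way. Among them, Myf6, a myogenic factor of mature fibres, measured 11.76, 11.69, 11.69, 11.80 and 11.77 in controls and 11.93, 12.04, 12.01, 11.99 and 12.07 in knockouts. Every knockout was above every control, and the difference was 0.27 ± 0.06 (limma adjusted p = 0.218). It passed under 1 of 19 alternatives, limma with a variance trend and robust fit (adjusted p = 0.0341). Tcf12, an E protein gene, had -0.13 ± 0.06 (0.709), its 4 kept probe sets running from -0.16 to 0.08, and Myf5 -0.15 ± 0.12 (0.872).

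**Figure D4:**
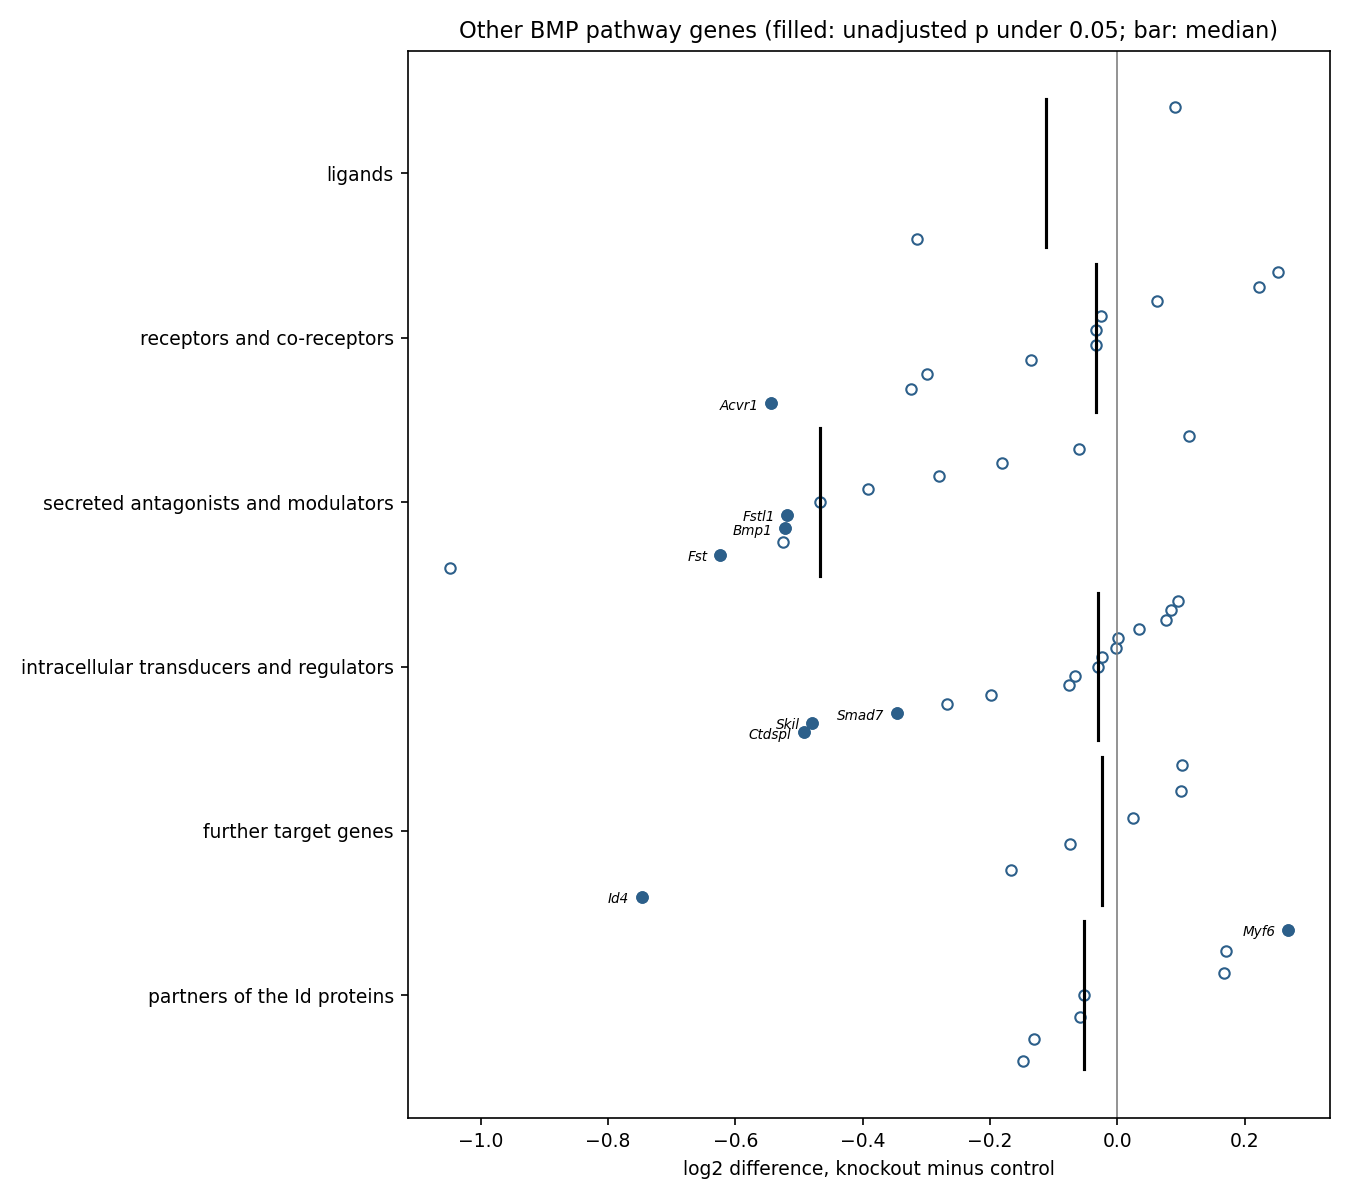
Log2 difference, knockout minus control (horizontal axis), of the brightest probe set of each of 51 further pathway genes, by role, with filled points for an unadjusted p under 0.05 and bars for list medians. Secreted antagonists and modulators lie mostly left of 0, with a median of -0.47, and the other lists have medians from -0.11 to -0.02.

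Id genes, BMP ligands and several antagonists are also expressed outside muscle fibres, and whole muscle RNA cannot tell fewer cells of a type from less RNA per cell. All 6 fibre markers were measured, Acta1 at 15.23 and Ckm at 14.57 (log2, control means), with higher values for 6 of 6 and a median difference of 0.04. All 12 endothelial markers were measured, 10 with lower values in knockouts (median -0.21), and their summed intensity ran from 5035 to 6166 in controls and from 4550 to 5054 in knockouts. Smooth muscle and pericyte markers had lower values for 7 of 7 (median -0.36, sums 10546 to 12239 against 9081 to 10401), with Cnn1 below the filter. The brightest of these, Rgs5 (12.75, control mean, log2), gave -0.11, and its 4 kept probe sets ran from -0.59 to 0.47. Fibroblast markers had lower values for 7 of 7 (median -0.34, sums 9970 to 14877 against 7844 to 12728). Tendon markers had lower values for 8 of 8 (median -0.86, sums 28971 to 35609 against 15247 to 30301), and macrophage and leukocyte markers for 8 of 8 (median -0.39, sums 8434 to 12299 against 5886 to 10922). Schwann cell markers had lower values for 4 of 4 (median -0.35, sums 5774 to 7764 against 4907 to 6900). Adipocyte markers had lower values for 2 of 3 (median -0.09, sums 16900 to 19485 against 15440 to 20164), with Plin1, Lep and Cfd not measured. Satellite cell markers had lower values for 3 of 4 (median -0.17, sums 4297 to 6057 against 3820 to 5027), with Calcr not measured. The blood list had 1 measured marker, Alas2 (0.41, 12.1 to 28.4 against 17.7 to 42.0). These sums follow the brightest marker of a list most. For tendon it was Fmod (14.65, control mean, log2), and for macrophages and leukocytes C1qb (12.61). Schwann cells had Pmp22 (12.56), adipocytes Fabp4 (14.11) and fibroblasts Dcn (12.35). Satellite cells had Sdc4 (12.19), which gave -0.19 on that probe set and 0.14 on its other. No marker in any list passed the threshold on its brightest probe set, where 0.131% of the brightest probe sets of all genes did. Limma's unadjusted p was under 0.05 for 7 of 8 tendon, 4 of 7 smooth muscle and pericyte and 4 of 7 fibroblast markers. The same held for 3 of 12 endothelial and 2 of 4 Schwann cell markers. All of these were lower, and the other lists had none. Of all genes 8.9% lay under it, 5.02% with lower values. The groups did not overlap for Tek, Myh11 and Scx, where 2.63% of all genes had such groups. Lower values were found for 51.5% of all genes. The part of these cell types in the Id and antagonist values was not tested.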

How the data were processed

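RNA of 10 gastrocnemius samples was labelled with NuGEN kits, per the labels' protocols. The authors deposited linear intensity values for 45101 probe sets, made with GCRMA per the submitters' processing notes (version and settings not stated there), which holds dim probe sets near a floor and compresses differences there. The log2 was taken here with no further normalization. Arrays have no read depth, so their number limits the precision. No probe set is named Mstn, so the genotype labels have no check. The labels do not say what same-numbered arrays share. The p-values of group differences weigh those differences against the spread between these samples.

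Probe sets naming 1 gene in the platform annotation were used, the brightest representing its gene. Those with a mean log2 of at least 4, apart from 64 array controls, entered 1 limma 3.58.1 fit in R 4.3.3 (lmFit and eBayes). Its two-sided p values were adjusted by Benjamini-Hochberg over 21154 probe sets. Exact permutation p values (252 assignments, two-sided, unadjusted) cannot go below 0.00794. Correlations used 100000 permutations, and 20000 under the alternative settings listed below. The fit was checked on simulated data. All members were named; of 77 other pathway genes, any past the threshold and the 3 of lowest p in each role. Names of genes absent from a list's measured part fall outside that rule. Members and lists were chosen with earlier results of these data known. Alternatives covered the filter, normalization, variance model, array weights, replicate block, hybridisation controls (7 probe sets), probe set choice and each array left out. Figures were drawn with matplotlib 3.10.9.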

Additional observations from a re-analysis of the deposited data

Results flagged for a closer look

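Of 70 groups of 5 arrays tested over the member and named pathway probe sets, 4 held 1 array standing apart from its group. Chance alone flags about 1 group in 20, here 3.5. Id3 was 8.53 (log2 intensity) in knockout 5 and 7.47 to 7.76 in the others. Smad1 was 9.50 in knockout 1 on its second kept probe set, against 9.73 to 9.80 in the others. Bmpr1a was 9.47 in control 4 on a probe set other than its brightest, against 9.21 to 9.27. Fbxo30 was 9.64 in control 2, against 9.83 to 9.87.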

How the results depend on the processing

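No member probe set passed under any of 19 alternatives, including each of the 10 arrays left out, and over 185 runs on single members the lowest adjusted p was 0.491 (Id2 with array weights). Signs changed in 7 of those runs, all of them with 1 array left out and all in members not past the threshold: leaving out each array gave -0.043 to 0.29 for Bmp4, -0.059 to 0.0090 for Bmpr1a, -0.020 to 0.091 for Smad1, -0.037 to 0.10 for Smad5 and -0.59 to 0.10 for Id1. Id2 stayed between -0.57 and -0.23 and Id3 between -0.48 and -0.12. Over 323 runs on 17 other pathway genes 1 gained a call, Myf6 with a variance trend and robust fit (0.27, adjusted p = 0.0341), and Bmp2 changed sign without control 2 (each array left out gave -0.0006 to 0.18). The count of 21 probe sets over the whole table became 11 with no filter, 36 after quantile normalization, 58 with a variance trend and robust fit, 67 with array weights, 99 with the hybridisation controls as a covariate and 5 without the 3 arrays on which those were highest. Each array left out gave 1 to 17. After median centring 28 passed (17 higher, 11 lower), against 11 higher and 10 lower without it. With the replicate block it was 1, and the block gave no member a call. The deviations of the 5 same-numbered pairs had correlations of -0.51, 0.13, 0.62, -0.20 and 0.19, and 2 of 10 arrays matched their own number best, which leaves the pairing of the samples by number undecided. Alternatives for the correlations were chosen after seeing the data. The Id1 and Id3 correlation of deviations lost its call after quantile normalization (0.71, adjusted permutation p = 0.128), median centring (0.73, 0.103), without 3 arrays (0.85, 0.166) and with the covariate (0.70, 0.154), and each array left out gave 0.68 to 0.92, with the call lost in 7 of 10 (adjusted permutation p up to 0.209). Leaving out each array gave -0.30 to 0.15 for Id1 and Id2 and -0.056 to 0.57 for Id2 and Id3, and the other alternatives gave -0.47 to -0.21 and 0.11 to 0.32, none past the threshold. The causes of these changes were not tested. Signal over background limits Smad6 and the second Id2 probe set.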
